A study of Rattus norvegicus with 8 samples.

Results

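The presynaptic vesicle machinery was taken here as a list of 34 genes whose products fill, hold, dock, fuse and retrieve the synaptic vesicles of nerve terminals. Its members were found by the gene name that the array files give each probe, after removal of the suffixes for predicted and mapped genes. Of the 34 genes, 32 had a probe under that name, and all 32 were among the 9444 genes measured, a gene counting as measured when 4 or more of the 8 arrays had a probe of it well above background. They were read by 44 of the 15207 probes, and 43 of these passed that filter. The remaining 2 listed genes, Amph and Erc2, were reached through RefSeq names only and are given apart from the counts.

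Whole hippocampi of rats aged 2 months had been hybridised as Cy3-labelled cRNA, one sample to an array. The PNFLX group (4 samples) were rats that received 10 mg/kg of fluoxetine, a drug that blocks serotonin reuptake, as pups from postnatal day 2 to 21, and the control group (4 samples) were rats given the vehicle, a 5% sucrose solution, over the same days. The sample descriptions give end days that rise with the sample, from 21 to 24 in controls 1 to 4 and from 25 to 28 in PNFLX 1 to 4. The protocol's day was followed. If the descriptions hold, end day and treatment cannot be told apart. Strain, sex and dose schedule are not given in the sources used here, nor is it said whether each sample came from a separate animal, so that p-values measure only the spread between these samples. All 8 arrays lay on a single slide, the PNFLX arrays in one row of it and the control arrays in the other, so that slide row and treatment cannot be told apart.

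Neurotransmitter release depends on a cycle of vesicle steps. Transporters load glutamate into the vesicle, scaffold and priming proteins of the active zone place it at the plasma membrane, and a complex of the vesicle SNARE synaptobrevin with the membrane SNAREs syntaxin and SNAP-25 pulls both membranes together when synaptotagmins sense calcium. Complexins clamp and assist that step, NSF and alpha-SNAP take the spent complexes apart, and dynamin and its partners pull the membrane back in by endocytosis. In the hippocampus most of these proteins serve the glutamate synapses of pyramidal and granule cells and the GABA synapses of interneurons.

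Most members had slightly lower values in PNFLX than in control hippocampi, and none of them singly passed the test. Of the 32 measured members 28 were lower in PNFLX and 4 were higher. The median of their log2 differences (PNFLX minus control) was -0.18. Over all 9444 genes 54.5% were lower and the median was -0.04. At a limma adjusted p under 0.05, 0 of the 32 members were called, beside 0.508% of all genes (48 genes, 0.286% higher and 0.222% lower). At an unadjusted limma p under 0.05 there were 4 members, Vamp1, Dnm1, Syngr1 and Syp, all lower, against a background of 7.7% of all genes lower, 5.08% higher and 12.8% in either direction. The PNFLX values lay wholly below the control values for 3 members, Vamp1, Dnm1 and Syp, beside 6.57% of all genes, and wholly above for none, beside 4.48%. The lowest adjusted p of any member was 0.207, for Vamp1. The lean depended on the background correction. In the comparison reported 27 of the 32 members lay below the median of all genes, and after normexp background correction only 12 did, with 24 lower and 8 higher. Without scaling between arrays 10 were lower and 22 higher. Leaving out the scaling shifts nearly all genes by one amount, here to a median of 0.26. The same 27 members lie below it by construction, which is no further support. In whole tissue, fewer neurons and less RNA per cell cannot be told apart.

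**Figure D1:**
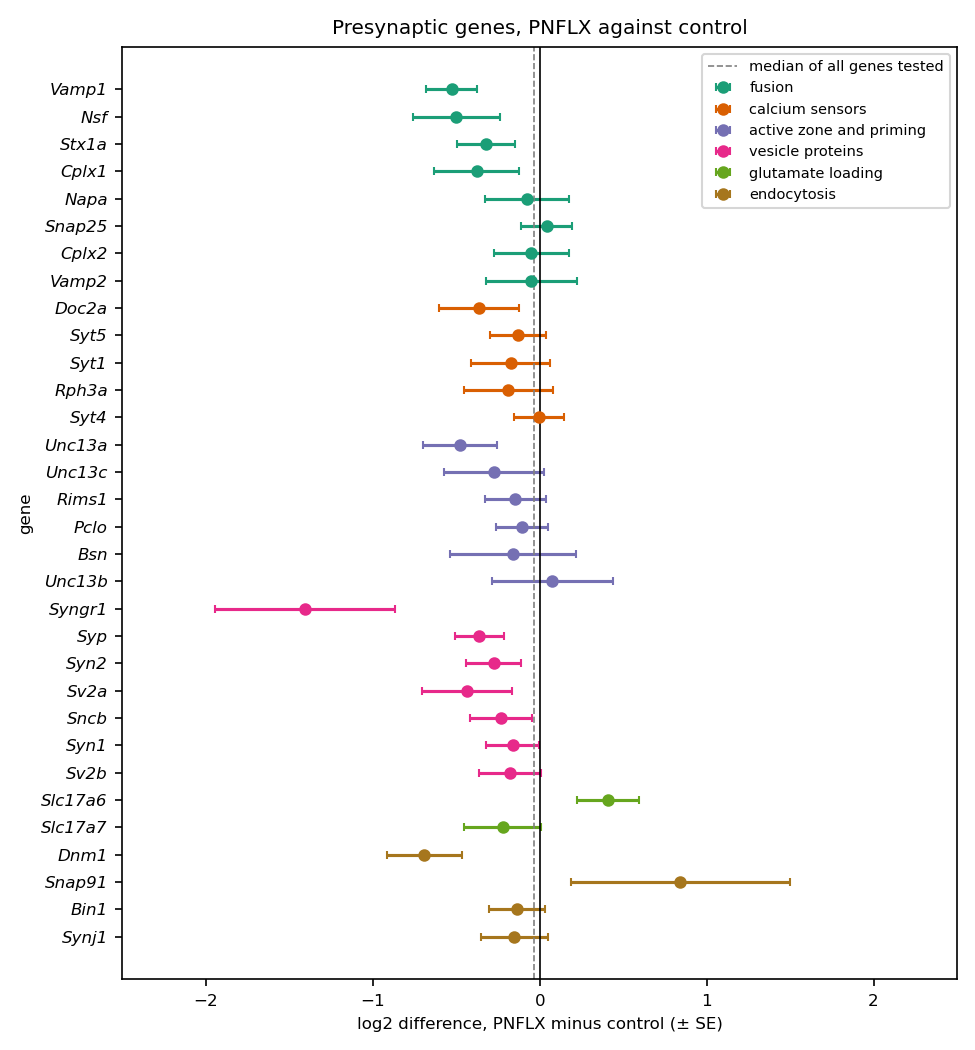
Log2 difference, PNFLX minus control, on the horizontal axis for the 32 measured members, one per line and coloured by role, with limma estimates from 4 PNFLX and 4 control arrays as points and ± SE as bars. The dashed line marks the median of all 9444 genes (-0.04), and 28 of the 32 points lie left of 0.

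The lower median rested in part on 1 array. PNFLX 4 held the lowest of the 8 values for 20 of the 32 members (62.5%), beside 28.1% of all genes. Relative to each gene's mean over the 8 arrays, the members' median was -0.47 on PNFLX 4, while PNFLX 1, 2 and 3 stood at 0.03, -0.05 and 0.03 and controls 1 to 4 at 0.21, 0.07, 0.11 and 0.12. Without PNFLX 4 the split was 23 lower and 9 higher with a median of -0.09, and 52.8% of all genes were then lower. Control 1 lay at the other end, with only 4 members below their mean over the arrays. Without both PNFLX 4 and control 1, an alternative chosen after seeing the data, 21 members were lower and 11 higher, and the median was -0.07. The median of 9 measured neuronal marker genes was likewise lowest on PNFLX 4 (-0.48) and highest on control 1 (0.32), and so was that of 7 microglia markers (-0.35 and 0.25). Oligodendrocyte, endothelial, choroid plexus and erythrocyte markers were also lowest on PNFLX 4, at -0.33, -0.27, -0.62 and -0.49. Astrocyte markers (0.02) and meningeal and fibroblast markers (0.07) were not low there. The part of tissue composition in the result was not tested.

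**Figure D2:**
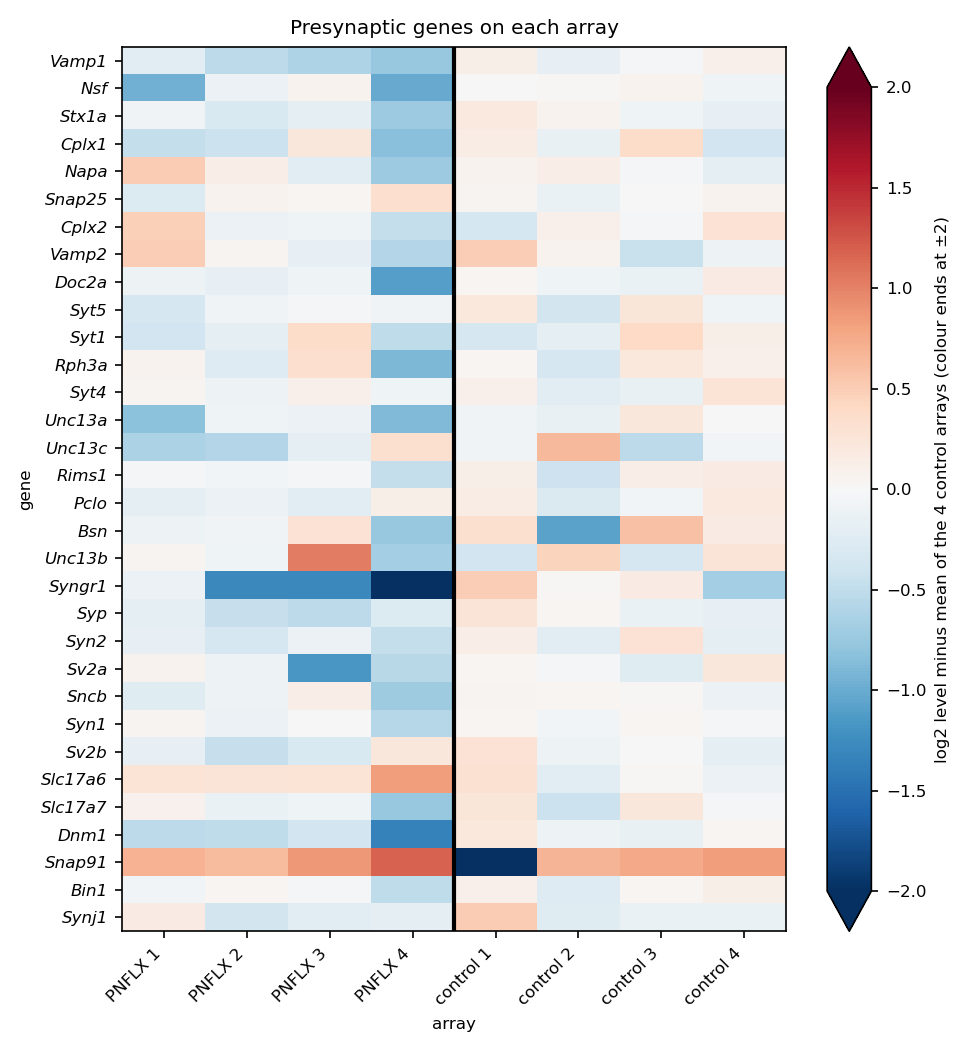
Log2 level of each of the 32 members (rows, in the order of the text) on each array (columns, PNFLX left of control), as the difference from the mean of the 4 control arrays; blue is lower and red is higher, and the colour scale ends at 2 in each direction. The PNFLX 4 column is the bluest, with 26 of the 32 members below their mean over the 8 arrays, and Snap91 is low on control 1 alone.

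The levels below are log2 of the processed spot signal minus the array's 75th percentile, so that 0 is the signal that 75% of the probes of an array stay under. Levels of different genes come from different probes, so that only their differences between groups are compared.

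Among the 8 fusion genes, which encode the SNARE complex and its helpers, 7 were lower in PNFLX and 1 was higher, with a median of -0.20. Vamp1, a synaptobrevin that serves as a vesicle SNARE, was read by this 60-base probe (rn4, chromosome 4, 161582160 to 161582219, plus strand), printed because its value and those of the gene's other probes differed:
Vamp1: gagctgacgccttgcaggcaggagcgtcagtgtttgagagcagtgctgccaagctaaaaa
Its levels were -1.89, -2.19, -2.29 and -2.43 in PNFLX 1 to 4, against -1.56, -1.84, -1.71 and -1.58 in controls 1 to 4. Every PNFLX value lay below every control value, though PNFLX 1 and control 2 were close. The difference was -0.53 (SE 0.15, limma adjusted p = 0.207). A second Vamp1 probe, at bases 161583528 to 161583587 of the same strand, gave 0.14 (SE 0.14), with overlapping groups. The last, named for an expressed sequence tag on the minus strand and well above background on only 5 arrays, gave -0.61 (SE 0.39). The lower value of Vamp1 thus held for the brightest of its probes and not for the second.

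Nsf encodes the ATPase that unwinds used SNARE complexes. Its levels were -1.89, -1.05, -0.86 and -1.95 in PNFLX 1 to 4, against -0.94, -0.92, -0.86 and -1.02 in controls 1 to 4. PNFLX 1 and PNFLX 4 were low by about 1 log2 unit, while PNFLX 2 and 3 lay among or next to the controls. The difference of -0.50 had an SE of 0.26 and a limma adjusted p of 0.466, and without PNFLX 4 it was -0.33.

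Stx1a, syntaxin 1A of the plasma membrane, was one of 6 members whose probe was spotted at 2 places of the array, which gives a check within each array. Both spots carry this sequence (rn4, unplaced sequence of chromosome 12, 12random, 691654 to 691713, minus strand):
Stx1a: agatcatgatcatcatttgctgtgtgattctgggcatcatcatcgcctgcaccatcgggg
The brighter spot read -1.88, -2.11, -1.98 and -2.52 in PNFLX 1 to 4, against -1.61, -1.73, -1.89 and -1.97 in controls 1 to 4. The groups overlapped only where PNFLX 1 lay above controls 3 and 4. Its difference was -0.32 (SE 0.17, limma adjusted p = 0.475), and the second spot gave -0.37 (SE 0.15). Without PNFLX 4 the brighter spot gave -0.19.

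Among the other fusion genes, Cplx1 (complexin 1) differed by -0.38 (SE 0.26), with PNFLX 4 lowest at -3.37, and by -0.22 without that array. Napa, encoding alpha-SNAP, the adaptor that brings NSF to the SNARE complex, differed by -0.08 (SE 0.25), and Cplx2 by -0.05 (SE 0.23). For Snap25, the SNARE that contributes a pair of helices to the complex, the difference was 0.04 with a 95% interval of -0.31 to 0.40. Vamp2, the main synaptobrevin of forebrain vesicles, differed by -0.05 (SE 0.27), its second probe gave 0.31 (SE 0.32), and the remaining one was well above background on 0 arrays. For these genes the arrays set a wide bound, not an absence of change.

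**Figure D3:**
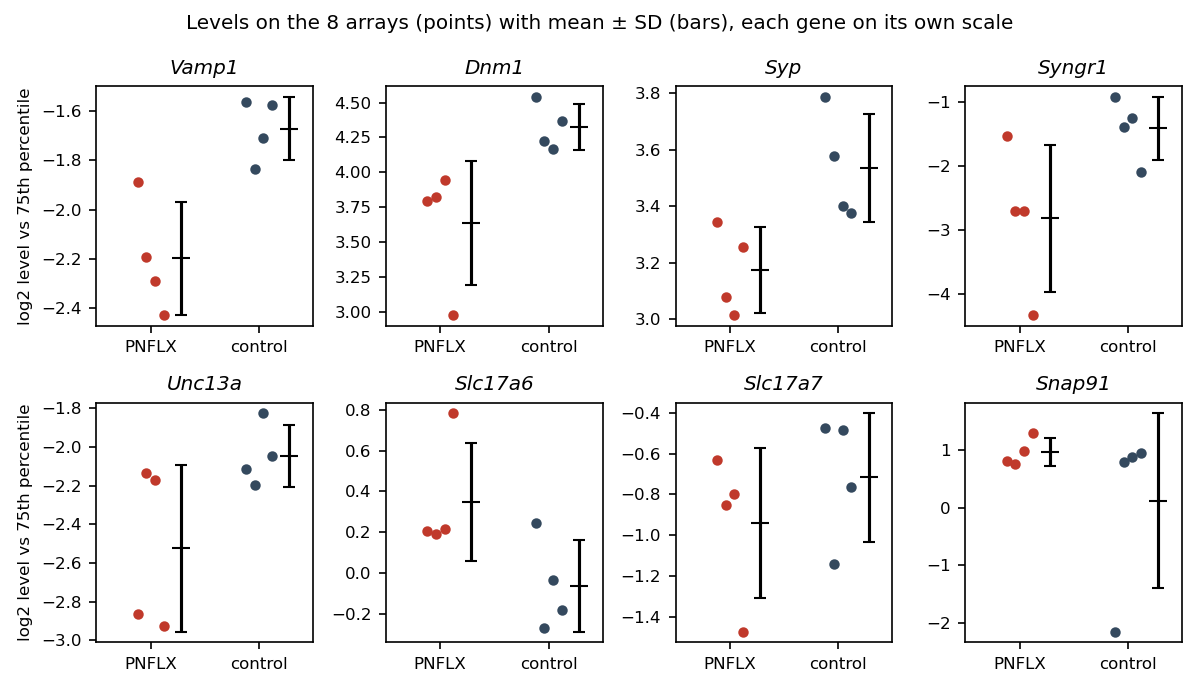
Log2 levels (vertical axes, relative to the array's 75th percentile, each gene on its own scale) of 8 members on the 4 PNFLX arrays (red) and the 4 control arrays (dark); bars are mean ± SD, n = 4. For Vamp1, Dnm1 and Syp the groups do not overlap, for Syngr1 and Unc13a they do, and control 1 sets the Snap91 control mean.

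The 5 calcium sensors were all lower in PNFLX (median -0.18), none past an unadjusted p of 0.05. Doc2a, a double C2 domain protein linked to asynchronous release, measured -2.56, -2.62, -2.53 and -3.55 in PNFLX 1 to 4, against -2.41, -2.54, -2.58 and -2.28 in controls 1 to 4. PNFLX 1 to 3 lay close to the controls and PNFLX 4 about 1 log2 unit lower. The difference of -0.36 (SE 0.24, limma adjusted p = 0.555) was -0.12 without PNFLX 4.

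Syt5 belongs to the synaptotagmins that bind calcium on vesicle membranes. Its levels were 4.34, 4.59, 4.63 and 4.61 in PNFLX 1 to 4, against 4.88, 4.31, 4.91 and 4.59 in controls 1 to 4. The PNFLX values lay inside the range of the controls, and the difference was -0.13 (SE 0.17, limma adjusted p = 0.770). Syt1, the sensor of fast synchronous release, measured -0.81, -0.61, -0.07 and -0.93 in PNFLX 1 to 4, against -0.77, -0.61, -0.03 and -0.31 in controls 1 to 4. The groups overlapped over most of their range, with a difference of -0.18 (SE 0.24, limma adjusted p = 0.777). A second Syt1 probe gave -0.27 (SE 0.16).

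Rph3a, encoding rabphilin, a vesicle protein that binds RAB3A, differed by -0.19 (SE 0.27). Syt4, a synaptotagmin that lacks a calcium-binding residue in one of its domains, differed by -0.01 (SE 0.15) with a 95% interval of -0.35 to 0.34. Its probe was spotted at 2 places and the other spot gave -0.19.

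Of 6 measured genes of the active zone and of vesicle priming 5 were lower and 1 was higher, with a median of -0.15. Unc13a encodes Munc13-1, which opens syntaxin and makes docked vesicles ready to fuse; its probe is shown because 2 of its 4 PNFLX values set the difference (rn4, chromosome 16, 18828768 to 18828827, minus strand):
Unc13a: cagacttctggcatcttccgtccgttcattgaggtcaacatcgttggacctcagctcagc
Levels were -2.87, -2.13, -2.17 and -2.93 in PNFLX 1 to 4, against -2.11, -2.20, -1.83 and -2.05 in controls 1 to 4. PNFLX 1 and 4 were low and PNFLX 2 and 3 lay among the controls, the same pattern as for Nsf. The difference of -0.48 (SE 0.22) had a limma adjusted p of 0.416.

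Unc13c, encoding Munc13-3, measured -3.86, -3.81, -3.43 and -2.91 in PNFLX 1 to 4, against -3.30, -2.57, -3.76 and -3.28 in controls 1 to 4. Here PNFLX 4 was the highest of its group and the groups overlapped, with a difference of -0.27 (SE 0.30, limma adjusted p = 0.717) that was -0.056 without control 2 and -0.47 without PNFLX 4. Unc13b, encoding Munc13-2, was dim, well above background on 7 arrays, and differed by 0.08 (SE 0.36).

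Rims1, a scaffold that ties vesicles and calcium channels to the active zone, measured -2.40, -2.42, -2.40 and -2.85 in PNFLX 1 to 4, against -2.25, -2.78, -2.24 and -2.21 in controls 1 to 4. One array of each group, PNFLX 4 and control 2, was low by a like amount, and the difference was -0.15 (SE 0.18, limma adjusted p = 0.755). Bassoon (Bsn) and Piccolo (Pclo), the giant scaffold proteins of the active zone, differed by -0.16 (SE 0.38) and -0.11 (SE 0.15). Bsn varied most within the control group, where control 2 was at -2.83 and control 3 at -1.17.

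The 7 genes of vesicle membrane and vesicle-bound proteins were all lower in PNFLX, with a median of -0.28, and 2 of them passed an unadjusted p of 0.05. Syp encodes synaptophysin, a protein that spans the vesicle membrane that is widely used to mark terminals. Its levels were 3.35, 3.08, 3.02 and 3.25 in PNFLX 1 to 4, against 3.79, 3.58, 3.40 and 3.38 in controls 1 to 4. All PNFLX values were below all control values, and PNFLX 4 was not the lowest. The difference was -0.36 (SE 0.15, limma adjusted p = 0.354). The same probe sequence at a second place, in spot row 162 instead of row 22, gave -0.05 (SE 0.14) with overlapping groups. The lower spot signal of Syp in PNFLX was therefore not repeated by the identical probe on the same arrays.

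Syngr1, encoding synaptogyrin 1, another protein that spans the vesicle membrane, showed the largest difference of the 32 members. Its levels were -1.54, -2.71, -2.71 and -4.33 in PNFLX 1 to 4, against -0.92, -1.39, -1.25 and -2.09 in controls 1 to 4. PNFLX 4 was far below the rest, and PNFLX 1 lay above control 4. The difference was -1.41 (SE 0.54, limma adjusted p = 0.329) its 95% interval ran from -2.63 to -0.18, and without PNFLX 4 it was -0.90. Its only spot is in row 191 of 192. With the median of each spot row and column subtracted on every array the difference was -0.19, so that most of it was shared with the other spots of that row or column.

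Syn2, encoding synapsin II, which ties vesicles to each other in the reserve pool, was another member whose 2 spots gave like values (rn4, chromosome 4, 151637722 to 151637781, plus strand):
Syn2: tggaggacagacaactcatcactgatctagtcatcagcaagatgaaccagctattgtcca
Levels of the brighter spot were 2.36, 2.19, 2.40 and 2.04 in PNFLX 1 to 4, against 2.65, 2.29, 2.81 and 2.34 in controls 1 to 4. PNFLX 1 and 3 overlapped with controls 2 and 4, and controls 1 and 3 were the highest arrays. The brighter spot differed by -0.28 (SE 0.16, limma adjusted p = 0.514) and the other by -0.33 (SE 0.18).

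Sv2a, the vesicle glycoprotein that binds the drug levetiracetam, differed by -0.44 (SE 0.27), with PNFLX 3 lowest at 1.85, and by -0.19 without that array. Its second spot gave 1.02 (SE 1.34), because that spot read -2.93 on control 1 and between 3.09 and 3.63 on controls 2 to 4. Sncb, beta-synuclein, differed by -0.23 (SE 0.19), Sv2b by -0.18 (SE 0.18) and Syn1, synapsin I, by -0.16 (SE 0.16). In Sncb and Syn1 PNFLX 4 was the lowest array, at 0.81 and -1.50, and without it Sncb differed by -0.071.

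The vesicular glutamate transporters went in opposite directions, neither past the test. Slc17a6 encodes VGLUT2, which in the forebrain is typical of thalamic and other subcortical afferents, and Slc17a7 encodes VGLUT1, the main transporter of hippocampal principal cells. Slc17a6 measured 0.21, 0.19, 0.21 and 0.78 in PNFLX 1 to 4, against 0.24, -0.27, -0.03 and -0.18 in controls 1 to 4. Only control 1 overlapped with the PNFLX arrays, and PNFLX 4 was the highest. The difference was 0.41 (SE 0.19, limma adjusted p = 0.410), an identical probe at a second place gave 0.27 (SE 0.25), and without PNFLX 4 the first gave 0.26.

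Slc17a7 was read by this probe (rn4, chromosome 1, 95727218 to 95727277, plus strand), shown because the pair of transporters had the smallest p of the pairs compared below:
Slc17a7: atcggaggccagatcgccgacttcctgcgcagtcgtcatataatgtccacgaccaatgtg
It measured -0.63, -0.85, -0.80 and -1.47 in PNFLX 1 to 4, against -0.48, -1.14, -0.49 and -0.76 in controls 1 to 4. PNFLX 4 was the lowest array, control 2 the next, and the groups overlapped. The difference was -0.22 (SE 0.23, limma adjusted p = 0.705), and it was -0.044 without PNFLX 4.

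Of 4 measured endocytosis genes 3 were lower and 1 was higher. Dnm1, the neuronal dynamin that cuts the neck of the forming vesicle, measured 3.80, 3.82, 3.94 and 2.98 in PNFLX 1 to 4, against 4.54, 4.22, 4.17 and 4.37 in controls 1 to 4. The groups did not overlap, and PNFLX 1 to 3 lay closer to the controls than PNFLX 4 did. The difference was -0.69 (SE 0.23, limma adjusted p = 0.259), and it was -0.47 without PNFLX 4. Dnm1 had 1 spot, and after normexp background correction in place of the scanner's processed signal its difference was 0.20.

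Snap91, encoding AP180, which gathers clathrin and the adaptor complex on the membrane, measured 0.81, 0.76, 0.98 and 1.30 in PNFLX 1 to 4, against -2.15, 0.80, 0.88 and 0.95 in controls 1 to 4. Control 1 stood alone, and the other 7 arrays lay between 0.76 and 1.30. The difference of 0.84 (SE 0.66, limma adjusted p = 0.608) was 0.09 without control 1. Bin1, amphiphysin 2, a protein that senses membrane curvature, measured 4.28, 4.37, 4.31 and 3.82 in PNFLX 1 to 4, against 4.43, 4.08, 4.37 and 4.46 in controls 1 to 4. Apart from PNFLX 4 its values lay within the control range, with a difference of -0.14 (SE 0.17, limma adjusted p = 0.751). Synj1, encoding the lipid phosphatase synaptojanin 1 that helps to shed the clathrin coat, differed by -0.15 (SE 0.20), and its second probe gave 0.06 (SE 0.23).

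The 2 listed genes found only by RefSeq name were both low on control 1. Amph, amphiphysin, named Amph1 in the files, measured 0.10, -0.49, -0.26 and -0.93 in PNFLX 1 to 4, against -2.19, -0.10, 0.10 and -0.17 in controls 1 to 4, a difference of 0.20 (SE 0.50). Erc2, the active zone scaffold also called CAST and named Cmbp in the files, measured -3.07, -3.81, -1.87 and -4.10 in PNFLX 1 to 4, against -6.29, -3.75, -3.31 and -3.13 in controls 1 to 4, a difference of 0.91 (SE 0.76). Without control 1 the difference of the means was -0.34 for Amph, the opposite sign, and 0.18 for Erc2. The Erc2 spot was well above background on 7 arrays.

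Control 1 held such low spots more often than most arrays, a count made after these values were seen. Over the probes past the filter, 2.69% of the spots of PNFLX 1 and 2.68% of those of control 1 lay more than 2 log2 units below the median of the other 7 arrays, beside 0.563% to 1.25% on the other arrays. For Snap91 and Amph the spots within 5 rows and columns had a median offset of 0.19 and 0.01 on control 1, and 2 of 90 and 3 of 91 of them were that low. Around the Erc2 spot 6 of 89 were, with a median offset of -0.10, and around the second Sv2a spot 10 of 71.

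How far a single spot can be trusted was read from all probes placed at 2 spots. Of 1784 sequences at exactly 2 places, 1488 passed the filter at both. The median gap between the spots of a pair on one array was 0.17 log2 units, 90% of gaps were under 0.88, and 1.25% were over 3. The median gap between the group differences that both spots gave was 0.22, and both differences had one sign in 63% of the pairs. Control 1 held 47 and PNFLX 1 held 37 of the gaps over 3, and each other array between 5 and 15. Among the 6 double-spotted members the group difference was lower in PNFLX by like amounts at both places for Stx1a and Syn2. For Syp (-0.36 and -0.05) and Syt4 (-0.01 and -0.19) the sign was the same at both places but the sizes were unlike. The difference was higher at both for Slc17a6. It was of opposite sign for Sv2a, where control 1 read 3.06 at the first spot and -2.93 at the second.

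**Figure D4:**
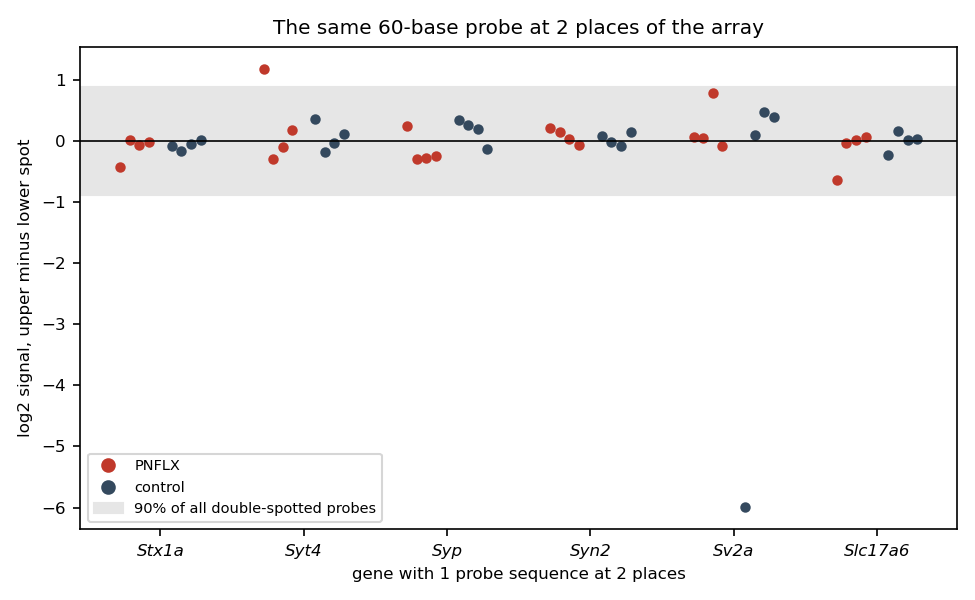
Log2 signal of the upper spot minus that of the lower spot (vertical axis) for the 6 members whose identical 60-base probe sits at 2 places, with PNFLX arrays in red and control arrays in dark. The grey band holds 90% of the gaps of all double-spotted probes (0.88 either way); the Sv2a spots on control 1 differ by -5.99.

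Related genes were set against each other within each array, where the scaling between arrays cancels. For 9 pairs the log2 ratio of the first gene's signal to the second's was compared between groups by an exact two-sided permutation test, whose smallest possible p with 4 against 4 samples is 0.0286. No pair passed, before or after adjustment over the 9 pairs. After adjustment a lone pair at that smallest possible p could not have passed either. The adjusted test therefore cannot decide whether any one ratio differed. The largest difference was that of Slc17a6 over Slc17a7, 0.63 higher in PNFLX (exact permutation p = 0.0571, adjusted over the 9 pairs 0.386). Without PNFLX 4 it was 0.31. For Vamp1 over Vamp2 the difference was -0.48 (exact permutation p = 0.0857, adjusted 0.386). Unc13a differed by -0.55 relative to Unc13b and by -0.20 relative to Unc13c, and Cplx1 by -0.33 relative to Cplx2. For Sv2a over Sv2b, Syt1 over Syt4, Syn1 over Syn2 and Bsn over Pclo the differences were -0.26, -0.17, 0.12 and -0.05. The exact permutation p of the pairs other than both first named lay between 0.200 and 0.800.

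A wider list of 99 other presynaptic genes, from further synaptotagmins and syntaxins to clathrin adaptors and neurexins, had a median of -0.15. Of 85 measured genes 57 were lower (67.1%, beside 54.5% of all genes) and 28 higher in PNFLX. At a limma adjusted p under 0.05, 1 was called higher and 0 lower, beside 0.286% and 0.222% of all genes. At an unadjusted limma p under 0.05, 5 were higher and 12 lower, beside 5.08% and 7.7% of all genes. PNFLX 4 held the lowest value for 38 of the 85 (44.7%), beside 28.1% of all genes. The call was Rab5a, a small GTPase of early endosomes. Rab5a measured -2.45, -2.16, -2.37 and -2.23 in PNFLX 1 to 4, against -3.09, -3.25, -3.22 and -3.07 in controls 1 to 4. It was higher in every PNFLX sample than in any control, by 0.86 (SE 0.13, limma adjusted p = 0.0316). The call was kept in 7 of 25 alternatives, was lost without any one of the 8 arrays, and had the opposite sign, -0.37, after normexp background correction.

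The next genes of that list did not pass. Synpr, encoding synaptoporin, a synaptophysin relative rich in mossy fibre terminals, measured 1.04, 1.06, 1.21 and 1.16 in PNFLX 1 to 4, against 0.57, 0.31, 0.36 and 0.73 in controls 1 to 4. It was higher without overlap, by 0.63 (SE 0.14, limma adjusted p = 0.103). Sncg, gamma-synuclein, differed by -0.52 (SE 0.13) and Ap2a1, a subunit of the clathrin adaptor AP-2, by -0.66 (SE 0.16), both lower without overlap and both at a limma adjusted p of 0.140.

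Vamp4, a SNARE of endosomes and the trans-Golgi network, and Itsn1, the endocytic scaffold intersectin 1, had far larger differences. Vamp4 measured -3.77, -5.93, -3.61 and -7.68 in PNFLX 1 to 4, of which 2 were well above background, against -1.36, -1.33, -1.21 and -0.94 in controls 1 to 4, a difference of -4.04 (SE 0.83, limma adjusted p = 0.0907). Itsn1 differed by -2.47 (SE 0.53, limma adjusted p = 0.0980). Their spots lie in rows 191 and 192 of 192, the first of them the row of Syngr1, and with row and column medians subtracted the differences were -2.77 and -0.81. With 2 PNFLX arrays not well above background, the size of the Vamp4 difference is not well determined.

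Markers of the cell types in the tissue were read beside these values. Neuronal markers had a median difference of -0.11, with 6 of 9 lower, and the oligodendrocyte markers, among them Mbp and Mag, had -0.33, with 7 of 7 lower. Of the astrocyte markers 3 of 6 were lower, of the microglia markers 5 of 7 and of the endothelial markers 3 of 5. Emcn, an endothelial sialomucin, was the only marker called, higher by 2.30 (SE 0.33, limma adjusted p = 0.0316); it was well above background on 4 PNFLX arrays and 1 control array, and its spot is in row 1. Meningeal and fibroblast markers were higher for 7 of 8, with a median deviation of 1.32 on PNFLX 1, those of erythrocytes stood at 0.89 on PNFLX 1, and those of the choroid plexus at 1.96 on control 4.

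**Figure D5:**
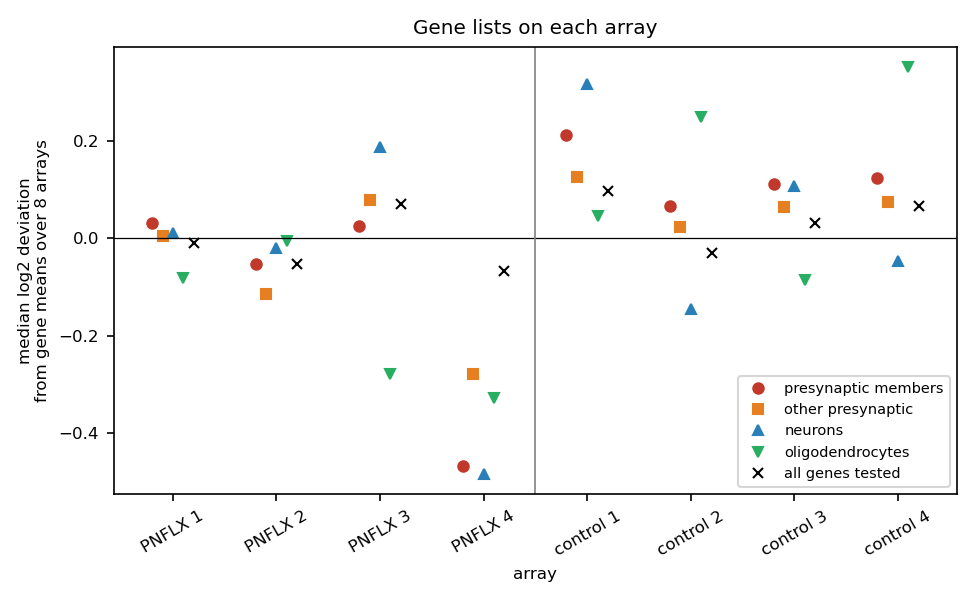
Median log2 deviation from each gene's mean over the 8 arrays (vertical axis) on each array (PNFLX left, control right) for the 32 members, the 85 other presynaptic genes, 9 neuronal and 7 oligodendrocyte markers and all 9444 genes. On PNFLX 4 the members (-0.47) and the neuronal markers (-0.48) lie well below all genes (-0.07).

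Most members passed the background flag on every array, and the effect of low signal on their differences was not tested. Of the 32 members 31 were well above background on all 8 arrays, between 70.5% and 77.9% of all probes were so on any array, and arrays correlated with each other at 0.953 to 0.984 over probes. Without scaling between arrays the median of all genes was 0.26 and 27 members were below it. That count equals the one with scaling by construction, as the genes shift together. After normexp correction the median of all genes was -0.39 and that of the members -0.36.

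The start regions of the genes were searched for 3 motifs. In RefSeq promoter windows (assembly GRCr8, 250 bases before to 50 after the start, 29 of the 34 members matched), the cAMP response element TGACGTCA, read on both strands, was in 3 member windows (10.3%) beside 1.91% of all 27457. The motif GGGCGG, bound by Sp1, was in 20 (69%) beside 34.9%, and the motif of NRF1 in 1, that of Bsn (3.45%), beside 0.932%. The 3 windows with the cAMP response element are shown because that motif was the rarer in the background among those with more than 1 match; the motif is in capitals. They lie on the plus strand of GRCr8 at chr4:159698793-159698860 for Vamp1, chr1:85915346-85915413 for Napa and chrX:3725525-3725592 for Syn1:
Vamp1: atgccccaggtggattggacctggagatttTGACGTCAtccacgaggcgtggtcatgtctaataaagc
Napa: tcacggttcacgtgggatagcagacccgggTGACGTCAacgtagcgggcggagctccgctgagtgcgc
Syn1: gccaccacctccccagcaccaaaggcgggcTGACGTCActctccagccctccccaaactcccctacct
The motif begins at positions -71, -59 and -190 relative to the start of these genes. Their differences were -0.53, -0.08 and -0.16, so that only Vamp1 stood below the members' median. A match of letters describes the window only.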

How the data were processed

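The intensity values (processed signal, mean spot and local background brightness) were made by the authors with Agilent Feature Extraction 10.5.1.1, per the file headers, detrended on each array, with surrogates in place of low signals and no step between arrays. Spots flagged as outliers were left out. A deposited log2 table held the same signals on a log2 scale, shifted by the 75th percentile of the array and then by the probe's median across arrays, to within 0.00242; its direction is that of the signal, and its column medians were -0.04, -0.07, 0.10 and -0.13 for PNFLX 1 to 4 and 0.06, -0.05, 0.04 and 0.04 for controls 1 to 4.

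The same log2 values, not centred, were used here. The 75th percentile of the processed signal ran from 654.4 to 941.4 over the arrays, and the number of arrays limits the precision. The brightest probe stood for a gene. The group comparison was a linear model in limma 3.58.1 (R 4.3.3) with Benjamini-Hochberg adjustment over 9444 genes and a threshold of 0.05; all adjusted p-values of genes are limma's, and SE is the moderated standard error. Pairs were compared by an exact permutation test over samples. Probe positions are those of the files (rn4), and promoter windows come from RefSeq. The members and lists were chosen with earlier results of these data known. Values in every sample were given for the 3 members of smallest unadjusted p in each role group, for both transporters, and for some of the 6 other presynaptic genes of smallest p. Replicate numbers were in the labels of both groups, but same-numbered samples correlated at only 0.009 to 0.088 after removal of group means, so that they were not taken as pairs.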

Additional observations from a re-analysis of the deposited data

Results flagged for a closer look

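For 9 of 64 groups of 4 values, 1 array of a member lay far from the other 3 of its group, more than Dixon's 95% limit allows; chance alone gives about 1 in 20. PNFLX 4 was that array for 5 of the 9, and over all genes it held the lowest value for 28.1% and the highest for 21.9%. It was low for Doc2a (-3.55, next value -2.62), Rims1 (-2.85, next -2.42), Dnm1 (2.98, next 3.80) and Bin1 (3.82, next 4.28), and high for Slc17a6 (0.78, next 0.21). PNFLX 1 was low for Syt5 (4.34, next 4.59). Among the controls, control 2 was low for Rims1 (-2.78, next -2.25), and control 1 was low for Snap91 (-2.15, next 0.80) and high for Synj1 (4.12, next 3.49). The cause was not tested.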

How the results depend on the processing

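No member passed an adjusted p of 0.05 under any of 25 alternatives to the processing, and Vamp1, Nsf, Stx1a, Doc2a, Unc13a, Syngr1 and Slc17a6 kept their direction in all that measured them. Of 9444 genes 48 were called in the comparison reported, against 27 after normexp, 73 after quantile normalization, 108 without scaling between arrays, 26 without a filter on dim probes, 25 with probes well above background on all 8 arrays, 10 after subtraction of row and column medians, 0 without the first and last 5 spot rows (limma; 1093 genes at an unadjusted p under 0.05), 5 with the replicate number as a block, 12 without PNFLX 1 and 4, 7 without control 1 and PNFLX 4, and 14 to 60 without single arrays. With the replicate block 28 members were lower and 4 higher, as without it; same-numbered samples correlated weakly, and only PNFLX 2 and 3 correlated best with their own number, as a hint from the data.

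The members that were higher numbered 8 after normexp, 22 (with 10 lower) without scaling, 8 after row and column subtraction, 9 without PNFLX 1 and 4, 11 without control 1 and PNFLX 4 and 3 to 9 without single arrays. Their median was -0.36 after normexp and 0.12 without scaling, and -0.25 to -0.09 without single arrays. After normexp, Syp was at 0.043, Dnm1 at 0.20 and Rab5a at -0.37. Without scaling, Syt5 was at 0.17, Syt1 at 0.12, Unc13c at 0.0223, Rims1 at 0.15, Syn2 at 0.0197, Slc17a7 at 0.0744 and Bin1 at 0.16. Those signs follow from the shift common to the genes in that setting. Syt1 was at 0.15 after row and column subtraction, and without PNFLX 1 and 4 Syt1 was at 0.0933 and Bin1 at 0.0066. Without control 1 and PNFLX 4, Rims1 was at 0.002, Slc17a7 at 0.0363, Snap91 at -0.0276 and Bin1 at 0.0198.

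Of the pairs, after normexp Syn1 over Syn2 was at -0.20, Sv2a over Sv2b at 0.003, Unc13a over Unc13b at 0.13, Syt1 over Syt4 at 0.0183 and Bsn over Pclo at 0.13. Sv2a over Sv2b was at 0.47 both with the mean over a gene's probes and with identical spots averaged. Both settings bring in the second Sv2a spot, which read -2.93 on control 1. After row and column subtraction Unc13a over Unc13c was at 0.16 and Bsn over Pclo at 0.24. Without PNFLX 1 and 4, Unc13a over Unc13c was at 0.29, Syt1 over Syt4 at 0.0933 and Bsn over Pclo at 0.28, and without control 1 and PNFLX 4 Unc13a over Unc13c was at 0.13 and Bsn over Pclo at 0.28. Without single arrays these 3 pairs ran from -0.47 to 0.13, from -0.32 to 0.0157 and from -0.32 to 0.22. No pair passed under any of these, which does not show that the ratios were alike. With 2 arrays left out the exact permutation test cannot reach the threshold, even before adjustment. In the other settings a lone pair at the smallest possible p could not pass after adjustment over the pairs. The cause of the changes of sign was not tested. Averaging of identical spots and both removals of 2 arrays were chosen after seeing the data. Among the 32 measured members only Unc13b was not well above background on all 8 arrays. Erc2, given apart from the counts, was well above background on 7 arrays.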
